A study of Mus musculus with 20 samples.

Results

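The red cell membrane skeleton was described in bulk bone marrow RNA through 8 genes, of the 37620 genes in the count table: the adducins *Add1*, *Add2* and *Add3*, protein 4.1 (*Epb4.1*), protein 4.2 (*Epb4.2*), α- and β-spectrin (*Spna1* and *Spnb1*) and ankyrin (*Ank1*). The genes were taken for their known place in the red cell membrane, with results of these data already known. The alternative exons of *Add1* and *Epb4.1* were chosen by their measured exon inclusion in these same mice, so their values are given as a description with no test. The *Add3* exon and the gene levels were not part of that choice of exons and were tested. The genes, *Add3* among them, were still chosen with results known, so their FDRs are not those of a blind choice.

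In a red cell, tetramers of α- and β-spectrin are tied at their ends to short actin filaments, with protein 4.1 strengthening the contact and adducin capping the filament. Ankyrin, helped by protein 4.2, fastens β-spectrin to the anion exchanger band 3 in the membrane. *Spna1*, *Spnb1*, *Ank1*, *Epb4.2* and *Add2* are known mainly as genes of the red cell lineage in marrow, whereas *Epb4.1*, *Add1* and *Add3* are also used by other blood cells. Protein 4.1 is the textbook case of an isoform switch in red cell maturation: late erythroblasts include a short exon that lets the protein hold spectrin and actin firmly together.

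The samples were bulk marrow cells of 20 recipient mice, 5 in each of 4 groups. All recipients were wild-type F1 mice (C57BL/6 × 129S4Sv/Jae) that had been irradiated and rebuilt with marrow pooled from several transgenic donors, and all received doxycycline chow for 7 days, which turned on a U2AF1(WT) or U2AF1(S34F) transgene through rtTA. U2AF1 is the splicing factor that reads the AG at the 3′ end of introns, and S34F is its recurrent mutation in myelodysplastic syndromes. Sudemycin D6, a compound that binds the splicing factor SF3B1, or its vehicle was infused into a vein on the last 5 of those days. Groups are named by transgene and infusion, in the order U2AF1(WT) vehicle, then the same transgene with sudemycin, then U2AF1(S34F) vehicle, then S34F with sudemycin. Because donors were pooled, p-values measure the spread between recipient mice. Labels place each mouse in a group by number (for example mouse 6 of the U2AF1(WT) sudemycin group), and equal numbers in different groups name different mice.

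Reads on genes numbered about 41145900 to 62138100 per mouse (median 51836300). *Xist*, a transcript of the inactive X chromosome, had 39145 to 78640 counts in the mice with U2AF1(WT) marrow and 1 to 8 in those with U2AF1(S34F) marrow, so genotype and sex cannot be told apart in any genotype comparison. *U2af1* itself was at 36.1 ± 1.38 CPM (counts scaled to the library's total on genes after TMM adjustment of that total; mean ± SD, n = 5) in U2AF1(WT) vehicle mice and at 51.0 ± 3.32 in U2AF1(S34F) vehicle mice (log2 difference 0.48, FDR=0.000294). Erythroid RNA was present: of 8 late and 6 early erythroid marker genes, none was at 0 over the 20 mice. Neutrophil RNA was abundant: its 8 marker genes summed to between 56039 and 134682 CPM against 283 to 984 CPM for the 8 late erythroid markers.

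Several short stretches of the genome carry the splicing results and are shown here, read from the mouse genome of the files' build (mm9, NCBI build 37), 5′ to 3′ on the transcript's strand. The genes lie as follows. *Spna1* (ENSMUSG00000026532) spans chr1:176102907-176178581 on the plus strand, *Spnb1* (ENSMUSG00000021061) chr12:77681475-77811534 on the minus strand, and *Ank1* (ENSMUSG00000031543) chr8:24085316-24260969 on the plus strand. *Epb4.1* (ENSMUSG00000028906) spans chr4:131479328-131631236 and *Epb4.2* (ENSMUSG00000023216) chr2:120843627-120862808, both on the minus strand. *Add1* (ENSMUSG00000029106) spans chr5:34916313-34974957, *Add2* (ENSMUSG00000030000) chr6:86028078-86069549 and *Add3* (ENSMUSG00000025026) chr19:53214935-53321889, all on the plus strand. The first set gives the alternative coding exons whose inclusion is reported, each with 20 intron bases before and 6 after it. Exon bases are in capitals.
Epb4.1, exon of 63 bp, chr4:131518839-131518901, minus strand: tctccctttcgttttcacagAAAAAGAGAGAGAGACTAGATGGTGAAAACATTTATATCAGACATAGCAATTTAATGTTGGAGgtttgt
Epb4.1, exon of 57 bp, chr4:131520046-131520102, minus strand: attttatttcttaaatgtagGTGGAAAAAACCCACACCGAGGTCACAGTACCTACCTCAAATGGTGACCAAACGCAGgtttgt
Add1, exon of 87 bp, chr5:34963481-34963567, plus strand: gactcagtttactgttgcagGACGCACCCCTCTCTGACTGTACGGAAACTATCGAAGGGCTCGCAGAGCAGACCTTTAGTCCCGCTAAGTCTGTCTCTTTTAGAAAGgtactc
Add3, exon of 96 bp, chr19:53318800-53318895, plus strand: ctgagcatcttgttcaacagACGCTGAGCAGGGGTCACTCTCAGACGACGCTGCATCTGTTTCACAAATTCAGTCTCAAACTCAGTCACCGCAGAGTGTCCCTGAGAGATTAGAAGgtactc

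Each of these 4 exons is coding in the annotation and has a length divisible by 3, so skipping it keeps the reading frame. The *Epb4.1* exon of 63 bp is the one included in late erythroblasts. Its downstream intron holds 3 copies of TGCATG, the letters bound by the Rbfox splicing factors, shown here in capitals.
Epb4.1, intron after the 63 bp exon, chr4:131518691-131518758, minus strand: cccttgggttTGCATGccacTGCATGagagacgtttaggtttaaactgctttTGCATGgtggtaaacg

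The copies start between 91 and 133 bases after the exon. TGCATG was looked for in the 300 bases after an exon. Of 7019 cassette exons tested, 12.7% had at least 1 copy on the transcript's strand and 8.51% on the other strand. No copy was found on either strand after the *Epb4.1* 57 bp exon, the *Add1* 5′, 87 bp, 37 bp and 50 bp exons or the *Add3* 96 bp exon. The remaining *Epb4.1* exons were not looked at one by one. Such a match describes the letters in this window and is not a site of binding.

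Mutant U2AF1 is known to weigh the base just before the AG, so the 3′ splice sites of the exons outside the coding set are given too, with the last 3 intron bases in capitals. *Add1* has an alternative exon in its 5′ noncoding part with a pair of 3′ splice sites, and a pair of small exons near its 3′ end.
Add1, 5′ exon, upstream 3′ splice site, chr5:34940798-34940820, plus strand: ttctatatgcttatttaTAGgta
Add1, 5′ exon, downstream 3′ splice site, chr5:34940899-34940921, plus strand: gttttcctgtatgtatgTAGatg
Add1, exon of 37 bp, chr5:34971765-34971787, plus strand: ttcttgtggccgccttaCAGcag
Add1, exon of 50 bp, chr5:34972864-34972886, plus strand: ccgatgtggtctttttgCAGaag

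The base before the AG was C for the *Epb4.1* 63 bp, *Add1* 87 bp, *Add1* 37 bp, *Add1* 50 bp and *Add3* 96 bp exons. It was T for the *Epb4.1* 57 bp exon and for both 3′ splice sites of the *Add1* 5′ exon. Among the 7019 cassette exons tested, C stood there in 60.9%, T in 30.1%, A in 8.05% and G in 0.955%.

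The 8 genes fell into a high and a low set. Per kilobase of exon, *Add3* had the highest mean level over the 20 mice, 80.0 CPM per kb, followed by *Add1* at 49.99 and *Epb4.1* at 13.3, and this order held in 20 of 20 mice at each step. *Spnb1* (1.89 CPM per kb), *Spna1* (1.81), *Add2* (1.51), *Ank1* (1.18) and *Epb4.2* (0.691) followed far below. Among these, *Spnb1* was above *Spna1* in 16 of 20 mice, *Spna1* above *Add2* in 19, *Add2* above *Ank1* in 18 and *Ank1* above *Epb4.2* in 19. The α- and β-spectrin genes, whose products pair in the tetramer, had a ratio of *Spna1* to *Spnb1* per kilobase of 0.963 ± 0.122 (SD over 20 mice; 0.785 to 1.22), and the ratio of *Ank1* to *Spnb1* was 0.624 ± 0.0762.

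The 5 genes of the low set varied widely between mice of the same group, and mostly in the same mice. In CPM, *Spnb1* was at 39.9, 27.9, 29.1, 21.3 and 23.6 in U2AF1(WT) vehicle mice 1 to 5. It was at 59.3, 13.9, 13.7, 38.0 and 20.8 in U2AF1(WT) sudemycin mice 6, 8, 9, 10 and 12. It was at 25.3, 36.0, 14.3, 11.9 and 16.2 in U2AF1(S34F) vehicle mice 1, 3, 5, 7 and 11, and at 16.9, 13.2, 7.99, 15.9 and 13.9 in U2AF1(S34F) sudemycin mice 2, 6, 9, 10 and 12. The U2AF1(S34F) sudemycin mice were all low, all below every U2AF1(WT) vehicle mouse, whereas the other groups were wide and overlapped. Mouse 6 of the U2AF1(WT) sudemycin group was the highest of its group for *Spna1*, *Spnb1*, *Ank1*, *Epb4.2* and *Add2*, as were, in their groups, mouse 1 of the U2AF1(WT) vehicle group and mouse 3 of the U2AF1(S34F) vehicle group. For *Add1* and *Add3*, mouse 3 of the U2AF1(S34F) vehicle group was the lowest of its group.

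*Add2*, in the same order of groups and mice, was at 9.39, 4.30, 6.14, 4.94 and 4.86 CPM, at 13.8, 3.19, 2.90, 8.79 and 4.07 CPM, at 5.50, 7.49, 2.34, 1.43 and 3.33 CPM, and at 2.94, 1.91, 1.59, 3.66 and 1.85 CPM. *Ank1* was at 26.7, 17.3, 22.6, 16.96 and 15.5 CPM, at 40.4, 11.3, 9.74, 30.1 and 16.02 CPM, at 17.05, 21.96, 8.47, 6.24 and 11.2 CPM, and at 12.1, 7.71, 5.29, 13.3 and 10.3 CPM. For both genes every mouse of the last group was below every mouse of the first, and the groups overlapped between genotypes under the same infusion and between infusions of the same genotype.

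*Spna1* was at 30.3, 19.05, 22.2, 13.3 and 21.2 CPM in the first group, then at 44.96, 10.04, 10.9, 27.6 and 19.6 CPM, then at 17.8, 28.5, 9.93, 7.67 and 12.4 CPM, and last at 13.2, 8.57, 7.27, 12.3 and 13.6 CPM. *Epb4.2*, the least abundant, had group means of 4.39 ± 1.48, 4.05 ± 2.52, 3.54 ± 1.87 and 3.002 ± 0.636 CPM. *Spna1* and *Epb4.2* overlapped between all groups. *Add1* had means of 298 ± 14.6, 333 ± 60.0, 291 ± 34.8 and 292 ± 28.0 CPM and *Add3* of 381 ± 15.99, 425 ± 74.0, 378 ± 37.5 and 396 ± 46.2 CPM, with wide overlap.

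**Figure D1:**
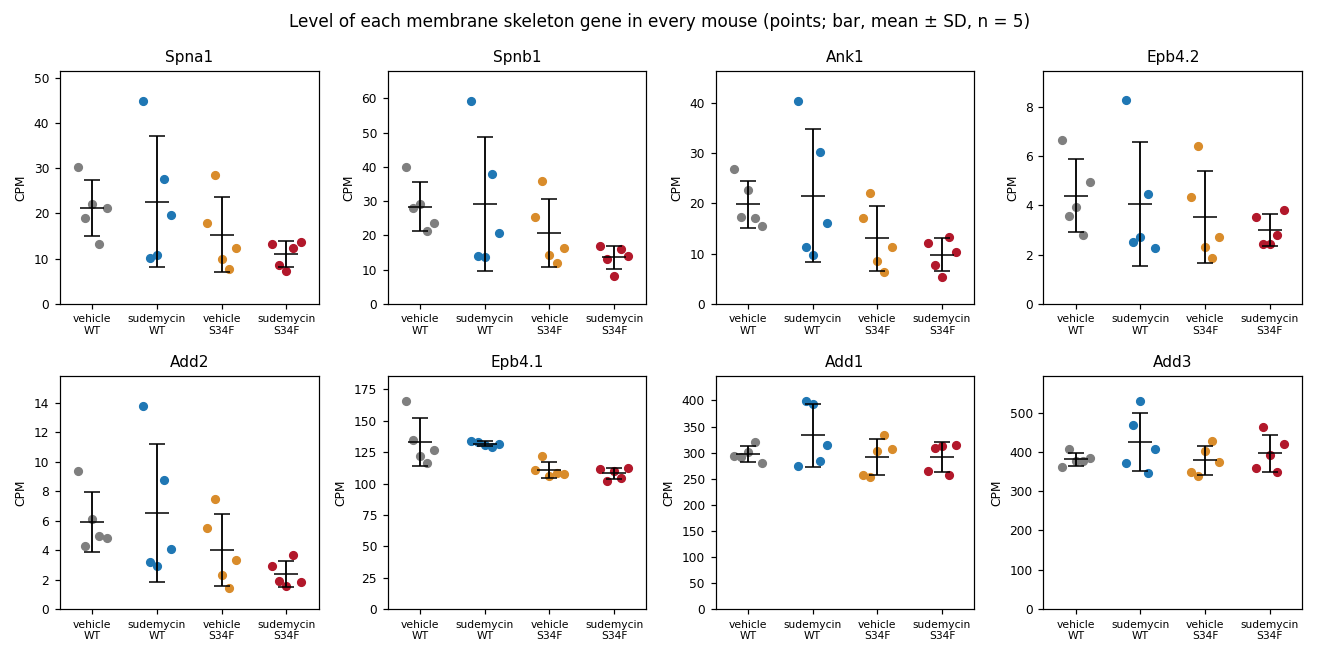
Each of the 8 panels plots the level of 1 gene in CPM (y axis, from 0) for the 4 groups (x axis). Points are mice, and the horizontal mark with its bar is the mean ± SD (n = 5). *Spnb1* lies between 7.99 and 16.9 CPM in U2AF1(S34F) sudemycin mice, below the 21.3 to 39.9 of U2AF1(WT) vehicle mice, while *Add1* and *Add3* overlap in all groups.

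Under vehicle, U2AF1(S34F) mice were compared with U2AF1(WT) mice without the drug, a contrast in which genotype and sex differ together. *Epb4.1* was the only member that passed the test (edgeR, FDR<10%): it fell by 0.28 ± 0.092 on the log2 scale (± SE, FDR=0.036), from 133 ± 19.3 to 111 ± 6.26 CPM. In U2AF1(WT) vehicle mice 1 to 5 it was at 166, 135, 122, 116 and 127 CPM, and in U2AF1(S34F) vehicle mice 1, 3, 5, 7 and 11 at 110, 122, 106, 109 and 108 CPM. The groups overlapped in mouse 3 of the latter. The spectrins, *Ank1*, *Epb4.2* and *Add2* had log2 differences between −0.63 (*Ank1*, SE 0.31, FDR=0.157) and −0.33 (*Epb4.2*, SE 0.32, FDR=0.470) that did not pass. *Add1* (−0.04) and *Add3* (−0.02) were close to 0. Thus 1 of 8 members was called, and 0 of 8 had groups that did not overlap, where 39.5% of all genes tested were called, 19.8% were called lower, and 20.2% did not overlap. The median log2 difference of the 8 members was −0.40, and of all genes 0.00. Without mouse 3 of the U2AF1(S34F) vehicle group, *Add2*, *Ank1*, *Spna1* and *Spnb1* were called as well, 5 of 8.

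With sudemycin D6 in both genotypes, U2AF1(S34F) mice had less of 5 of the 8 genes. *Add2*, the adducin partner typical of red cells, fell by 1.45 ± 0.43 on the log2 scale (FDR=0.0256), which is 2.74-fold, from 6.54 ± 4.69 to 2.39 ± 0.875 CPM. *Ank1* fell by 1.15 ± 0.39 (FDR=0.0478), *Spnb1* by 1.12 ± 0.39 (FDR=0.0532), *Spna1* by 1.05 ± 0.38 (FDR=0.0596) and *Epb4.1* by 0.29 ± 0.058 (FDR=0.00374). *Epb4.1* was tight in both groups: 134, 134, 131, 129 and 132 CPM in U2AF1(WT) mice 6, 8, 9, 10 and 12 and 112, 102, 110, 105 and 112 CPM in U2AF1(S34F) mice 2, 6, 9, 10 and 12. These 2 groups did not overlap. *Epb4.2* was at −0.44 (SE 0.34, FDR=0.358), and *Add1* and *Add3* at −0.19 and −0.10, none of them called.

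The share of all genes called in that comparison was 36.8%, 19.6% being called lower, and 19.7% did not overlap, against 5 of 8 members called and 1 of 8 that did not overlap. The members' median log2 difference was −0.74 and that of all genes −0.03. The calls of *Ank1*, *Spna1* and *Spnb1* rested on few mice: each was lost without mouse 6 or mouse 10 of the U2AF1(WT) group, or without mouse 9 of the U2AF1(S34F) group, which leaves 2 of 8, and *Spna1* also without mouse 6 of the U2AF1(S34F) group. Without mouse 6 of the U2AF1(WT) group the log2 differences were −0.68 for *Spnb1* and −0.63 for *Spna1*.

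Sudemycin D6 within a genotype gave no member past the test. In U2AF1(WT) mice the log2 differences ran from −0.13 (*Epb4.2*) to 0.14 (*Add1*), with 0 of 8 called where 3.07% of all genes were called, 1.89% lower, and with 0 of 8 non-overlapping where 4.16% of genes were. In U2AF1(S34F) mice they ran from −0.74 (*Add2*, SE 0.40, FDR=0.302) to 0.06 (*Add3*). Again 0 of 8 were called where 10.8% of genes were called, 5.85% lower, and 0 of 8 did not overlap where 7.84% of genes did not. *Spnb1* (−0.61, SE 0.31, FDR=0.268), *Spna1* (−0.47, SE 0.33) and *Ank1* (−0.42, SE 0.35) were all below 0 there without passing.

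U2AF1(S34F) sudemycin mice set against U2AF1(WT) vehicle mice, mutation plus drug against neither, gave the most calls. Sex differed between these groups too. *Add2* fell by 1.30 ± 0.26 on the log2 scale (FDR=0.00179, 2.45-fold). *Spnb1* fell by 1.06 ± 0.20 (FDR=0.00184, 2.09-fold), *Ank1* by 1.02 ± 0.24 (FDR=0.00533, 2.03-fold), *Spna1* by 0.95 ± 0.22 (FDR=0.00567, 1.93-fold), *Epb4.2* by 0.54 ± 0.22 (FDR=0.0617) and *Epb4.1* by 0.30 ± 0.090 (FDR=0.0162). *Add1* (−0.03, SE 0.078) and *Add3* (0.05, SE 0.083) did not pass. *Add2* ran from 4.30 to 9.39 CPM in the first group and from 1.59 to 3.66 CPM in the other, and *Ank1* from 15.5 to 26.7 and from 5.29 to 13.3 CPM. *Add2*, *Epb4.1*, *Spnb1* and *Ank1*, 4 of 8, did not overlap, where 24.2% of all genes did not. Of all genes, 50.2% were called and 25.1% called lower, beside 6 of 8 members. The median log2 difference was −0.74 for the members and 0.00 for all genes. The call of *Epb4.2* was lost without mouse 1 or 5 of the vehicle-treated group, or without mouse 6, 9 or 10 of the sudemycin-treated group, and without mouse 1 of the former its log2 difference was −0.34.

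The comparisons share mice (the U2AF1(WT) vehicle group serves in 3 of them), so their values are set side by side and are not independent of one another. The interaction, which asks whether the drug acted differently in the 2 genotypes, gave 0 of 8 members, the log2 terms running from −0.89 (*Add2*, SE 0.62, FDR=0.809) to −0.02 (*Epb4.1*). Over all genes it called 0.013%, and 1144 genes had an unadjusted p under 0.05. DESeq2 also called 0 of 8 members there. Fewer red cell precursors in the marrow and less RNA of these genes per cell cannot be told apart in bulk samples.

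**Figure D2:**
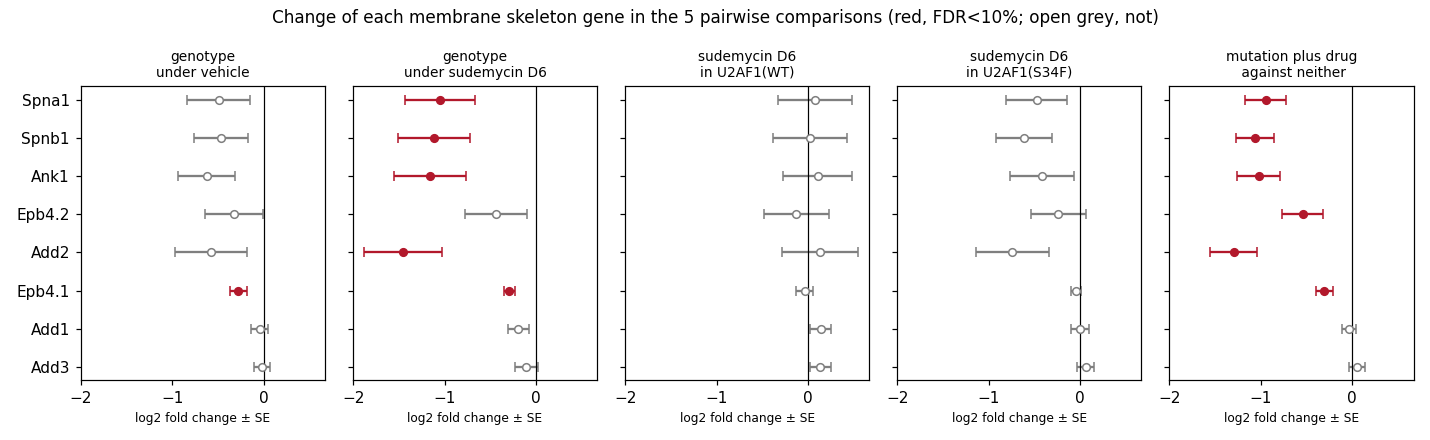
For each of the 8 genes (y axis) the log2 fold change with its SE (x axis, 0 at the vertical line) is plotted in the 5 pairwise comparisons, 1 panel each. Filled red points passed FDR<10% and open grey points did not: 1, 5, 0, 0 and 6 genes from left to right, all of them on the lower side, with *Add2* the farthest from 0 in the last panel at −1.30.

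Early erythroid markers were called lower with mutation plus drug and between genotypes under sudemycin D6, where low-set genes were called too. Some were also called lower between genotypes under vehicle and with the drug in U2AF1(S34F) mice, where no low-set gene was called. The 6 markers, the factors *Gata1*, *Klf1* and *Zfpm1*, the receptors *Epor* and *Kit* and the carbonic anhydrase *Car1*, had 6 of 6 called lower with mutation plus drug against neither, where 25.1% of all genes were called lower. *Car1* fell by 1.92 ± 0.35 on the log2 scale (FDR=0.00215) and *Zfpm1* by 1.59 ± 0.22 (FDR=0.000215). Of the 6, 2 were called lower between genotypes under vehicle (*Gata1* and *Zfpm1*), 4 between genotypes under sudemycin D6, 0 with the drug in U2AF1(WT) mice and 4 with the drug in U2AF1(S34F) mice. Of all genes, 19.8%, 19.6%, 1.89% and 5.85% were called lower in these comparisons, in that order. Their summed level had a median of 131 CPM (97.6 to 157) in U2AF1(WT) vehicle mice, 80.9 (50.8 to 137) in U2AF1(WT) sudemycin mice, 124 (95.0 to 170) in U2AF1(S34F) vehicle mice and 65.0 (56.9 to 91.5) in U2AF1(S34F) sudemycin mice. Beside them, the 5 low-set skeleton genes summed to a median of 72.1 CPM (59.3 to 113), 62.8 (40.0 to 167), 45.9 (29.1 to 100.4) and 43.5 (24.6 to 48.7) in the same order.

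Few of the late markers were called, and they varied widely: their sum ran from 283 to 984 CPM among U2AF1(S34F) vehicle mice. Of 8 genes, 0 were called between genotypes under vehicle (39.5% of all genes) or with the drug in U2AF1(WT) (3.07%) or U2AF1(S34F) mice (10.8%). Called lower were 2 between genotypes under sudemycin D6 (*Ermap* and *Hba-a1*), where 19.6% of all genes were. With mutation plus drug against neither, 1 was called lower (*Ermap*, −1.50 ± 0.34, FDR=0.00616), where 25.1% of all genes were. *Slc4a1*, the band 3 anchor of ankyrin, was at 29.5 and 25.5 CPM in that last comparison (log2 difference −0.21, SE 0.28, FDR=0.574). The globins *Hba-a1* and *Hbb-b1*, whose reads may be shared with near-identical copies, summed to a median of 221 CPM (179 to 528) in U2AF1(WT) vehicle mice and 401 CPM (258 to 516) in U2AF1(S34F) sudemycin mice. The part of erythroid cell numbers in the members' differences was not tested.

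**Figure D3:**
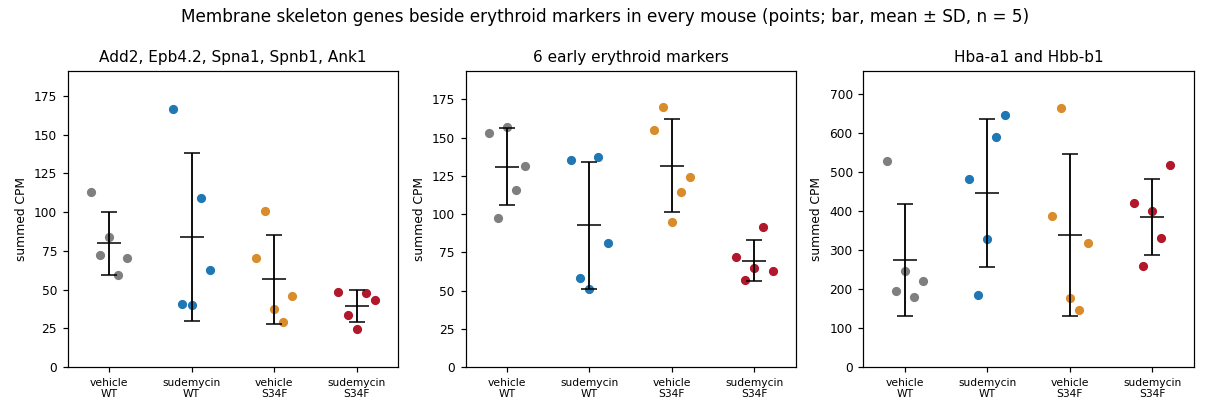
Summed CPM per mouse (y axis, from 0) is shown by group (x axis) for the 5 low-set skeleton genes, the 6 early erythroid markers and the 2 globin genes; points are mice, marks with bars mean ± SD (n = 5). U2AF1(S34F) sudemycin mice lie at 24.6 to 48.7 CPM for the skeleton genes and 56.9 to 91.5 CPM for the early markers, while their globin sums, 258 to 516 CPM, lie within the range of the other groups.

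Markers of other cells moved too. With mutation plus drug against neither, 4 of 8 neutrophil markers rose (*S100a8* by 1.21 ± 0.20, FDR=0.000521) and 0 fell, 7 of 7 B cell markers fell (*Pax5*, log2 difference −1.74 ± 0.29, FDR=0.000706), 4 of 5 T and NK cell markers fell and 1 rose, 3 of 5 megakaryocyte markers fell and 1 rose, 2 of 5 monocyte markers fell and 1 rose, and 1 of 3 stromal markers fell, beside 50.2% of all genes called. None of these genes was at 0 over the 20 mice. Summed neutrophil markers had medians of 63965, 61725, 96625 and 96953 CPM in the order of the groups, and summed B cell markers 117, 137, 46.8 and 42.4 CPM. Summed T and NK cell markers had medians of 47.4, 60.2, 55.2 and 54.9 CPM, so their sum was not lower although 4 of 5 genes fell. The part of these cells in the members' differences was not tested.

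Other proteins of the red cell membrane were a list of 20 genes. With mutation plus drug against neither 11 of 20 fell and 2 rose (median log2 difference −0.35), beside 50.2% of all genes called and 25.1% called lower. The water channel *Aqp1* fell from 25.7 to 9.40 CPM (−1.44 ± 0.23, FDR=0.000587) and *Rhag*, the core of the Rh complex, from 4.47 to 1.75 CPM (−1.33 ± 0.25, FDR=0.00104), whereas *Stom*, stomatin, rose from 138 to 185 CPM (0.42 ± 0.094, FDR=0.00353). Between genotypes under vehicle 6 fell and 2 rose, a share close to the 39.5% of all genes called. There the ankyrin paralogue *Ank2*, counted in this list and among the paralogues below, fell by 2.08 ± 0.29 (FDR=0.000307), from 2.50 to 0.570 CPM. In the same comparison the glucose transporter *Slc2a1* fell by 0.76 ± 0.11 (FDR=0.000435) and the mechanically gated channel *Fam38a* (Piezo1) by 0.73 ± 0.12 (FDR=0.000735). Under sudemycin D6 6 fell and 1 rose between genotypes, where 36.8% of all genes were called. The drug called 0 of 20 in U2AF1(WT) mice, and 2 higher and 1 lower in U2AF1(S34F) mice, where 3.07% and 10.8% of all genes were called.

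Paralogues of the members in other tissues were 13 genes, of which 11 or 12 had enough reads. With mutation plus drug 3 fell and 1 rose, where 50.2% of all genes were called. The broadly used α-spectrin *Spna2* was at 473 and 538 CPM and rose by 0.18 ± 0.070 (FDR=0.048). *Epb4.1l4b* fell by 1.02 ± 0.18 (FDR=0.000767) and *Epb4.1l1* by 0.78 ± 0.23 (FDR=0.0162). Between genotypes 2 fell under vehicle (*Ank2* and *Spnb5*, the latter by 1.21 ± 0.27, FDR=0.00535) and 3 under sudemycin D6, among them *Spnb3* (−0.76 ± 0.26, FDR=0.0457). All genes were called at 39.5% and 36.8% in these 2 genotype comparisons, 19.8% and 19.6% being called lower. With the drug 1 rose and 1 fell in each genotype, where 3.07% of all genes were called in U2AF1(WT) and 10.8% in U2AF1(S34F) mice.

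Splicing of the members was read from junction reads. An exon's inclusion Ψ is the fraction of spliced reads that include it, from 0 to 1, among the reads of given flanking splice sites. Inclusion reads are halved for a cassette exon because 2 junctions report it. The annotated junctions of the 8 genes formed 27 events, of which 23 had enough reads: 9 in *Add1*, 6 in *Epb4.1*, 6 in *Ank1*, 1 in *Add3* and 1 in *Epb4.2*. *Add2*, *Spna1* and *Spnb1* formed none. Junction reads per mouse had a median of 20632 for *Add3*, 15388 for *Add1* and 5572 for *Epb4.1*, against 1172 for *Spna1*, 1112 for *Ank1*, 922 for *Spnb1*, 244 for *Add2* and 151 for *Epb4.2*, so the depth was greatest for the first 3.

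At FDR<10% and a change in Ψ (ΔΨ) above 1%, 3 member events were called between genotypes under vehicle (4.18% of all events tested), 2 under sudemycin D6 (3.93%), 0 with the drug in U2AF1(WT) mice (1.21%), 3 with the drug in U2AF1(S34F) mice (1.59%), 5 with mutation plus drug (6.68%) and 0 for the interaction (0.0%). Groups did not overlap in 3 of 22, 1 of 22, 0 of 23, 2 of 22 and 5 of 22 member events in the 5 pairwise comparisons, where 3.92%, 3.86%, 1.98%, 2.47% and 5.4% of all events did not. Because *Add1* and *Epb4.1* exons were chosen for their inclusion, nothing is read from these counts. No member event was called with the drug in U2AF1(WT) mice, where edgeR called 132 events of all genes and 1067 had an unadjusted p under 0.05.

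*Add3*, γ-adducin, included an exon more often in U2AF1(S34F) than in U2AF1(WT) mice. This 96 bp coding exon was included at Ψ of 0.399, 0.408, 0.381, 0.331 and 0.460 in U2AF1(WT) vehicle mice 1 to 5 and at 0.447, 0.420, 0.457, 0.358 and 0.363 in U2AF1(WT) sudemycin mice 6, 8, 9, 10 and 12. In U2AF1(S34F) vehicle mice 1, 3, 5, 7 and 11 it was at 0.482, 0.516, 0.499, 0.532 and 0.534, and in U2AF1(S34F) sudemycin mice 2, 6, 9, 10 and 12 at 0.497, 0.496, 0.525, 0.541 and 0.524. Every U2AF1(S34F) mouse lay above every U2AF1(WT) mouse, with or without the drug. Between 1331 and 3088 reads per mouse stood behind each value.

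The exon's inclusion rose by ΔΨ=0.117 between genotypes under vehicle (0.396 ± 0.047 to 0.513 ± 0.022, FDR=2.45e-05), by 0.108 under sudemycin D6 (0.409 ± 0.046 to 0.517 ± 0.019, FDR=0.000135) and by 0.121 with mutation plus drug (FDR=4.92e-06). With the drug the difference was 0.013 in U2AF1(WT) mice (FDR=0.861) and 0.0043 in U2AF1(S34F) mice (FDR=0.995), neither called, and the interaction term was −0.0087 (FDR=1.0). limma on Ψ gave FDR=0.0519, 0.0683 and 0.0228 in the 3 called comparisons. With a negative binomial dispersion estimated by edgeR none of the 3 was called (FDR=0.265, 0.300 and 0.122). The level of *Add3* passed the test in none of the comparisons (log2 differences from −0.10 to 0.13).

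**Figure D4:**
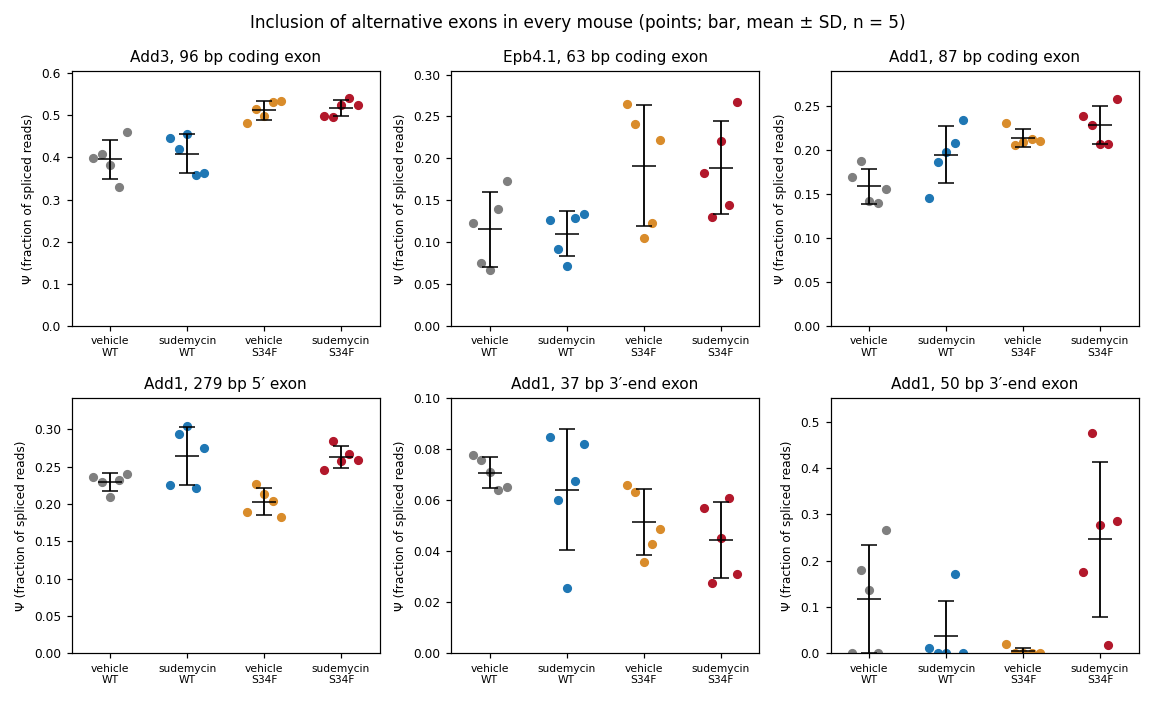
Ψ per mouse (y axis, from 0) is plotted by group (x axis) for 6 alternative exons of *Add3*, *Epb4.1* and *Add1*; points are mice, marks with bars mean ± SD (n = 5). In *Add3* the U2AF1(S34F) mice lie at 0.482 to 0.541 and the U2AF1(WT) mice at 0.331 to 0.460, whereas the *Add1* exon of 50 bp is scattered from 0 to 0.476. The Ψ of that 50 bp exon describes only messages with the *Add1* 37 bp exon or its 34 bp form.

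*Epb4.1* inclusion of the erythroid 63 bp exon was low in this marrow. Its Ψ was 0.122, 0.0744, 0.0664, 0.139 and 0.173 in U2AF1(WT) vehicle mice 1 to 5 and 0.126, 0.0918, 0.0712, 0.129 and 0.133 in U2AF1(WT) sudemycin mice. In U2AF1(S34F) vehicle mice 1, 3, 5, 7 and 11 it was 0.264, 0.241, 0.105, 0.123 and 0.222, and in U2AF1(S34F) sudemycin mice 2, 6, 9, 10 and 12 0.182, 0.130, 0.220, 0.145 and 0.267. The upper U2AF1(S34F) mice exceeded every U2AF1(WT) mouse, and the lower ones, such as mice 5 and 7 of the vehicle-treated group, lay among them. Group means were 0.115 ± 0.045, 0.110 ± 0.027, 0.191 ± 0.072 and 0.189 ± 0.056. The difference between genotypes was 0.076 under vehicle and 0.079 under sudemycin D6, and the drug's was −0.0050 in U2AF1(WT) and −0.0022 in U2AF1(S34F) mice.

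The 57 bp exon upstream of it had a mean Ψ of 0.067, 0.076, 0.0067 and 0.014 in the same order of groups. It had 0 inclusion reads in 4 of 5 U2AF1(S34F) vehicle mice, and 21 to 93 reads per mouse in all, so its values are coarse. Its skipping reads all enter the 63 bp exon, so its Ψ describes messages that include the 63 bp exon and not all *Epb4.1* messages. The 63 bp exon itself had 232 to 474 reads per mouse. The other *Epb4.1* exons were nearly fixed. The 102 bp and 105 bp exons were included at 0.980 to 0.988 and 0.994 to 0.998 in the group means, the 450 bp exon at 0.0023 to 0.014, and a pair of 3′ splice sites 3 bp apart was used at 0.817 to 0.843 for its more used site.

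The 5′ end of *Epb4.1* decides which start codon the message carries. Transcripts from the most upstream first exon are known to skip a short stretch with the upstream start codon and so make the short red cell form, whereas transcripts from the other first exons keep it. This stretch of 17 bases, with the start codon in capitals, is what separates both 3′ splice sites.
Epb4.1, bases between both 3′ splice sites, chr4:131563337-131563353, minus strand: gaacatcATGacaacag

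In these mice the upstream first exon was joined past this stretch by 4690 reads and to its start by 16. The other 2 first exons were joined to its start by 263 and 161 reads and past it by 0 each. Of the reads into the site past the stretch, 0.989 to 0.999 came from the upstream first exon in the group means. First exon and 3′ splice site thus went together in nearly all reads, and all 4 groups held mice at 1.0.

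*Add1*, α-adducin, had several alternative exons, whose largest differences lay in different comparisons. Its 87 bp coding exon was included at 0.169, 0.187, 0.142, 0.140 and 0.156 in U2AF1(WT) vehicle mice 1 to 5 and at 0.230, 0.205, 0.209, 0.213 and 0.210 in U2AF1(S34F) vehicle mice 1, 3, 5, 7 and 11, with no overlap. Group means were 0.159 ± 0.020, 0.194 ± 0.032, 0.213 ± 0.0098 and 0.228 ± 0.022 in the order vehicle U2AF1(WT), sudemycin U2AF1(WT), vehicle U2AF1(S34F) and sudemycin U2AF1(S34F). Between genotypes ΔΨ was 0.055 under vehicle and 0.033 under sudemycin D6, the drug gave 0.035 and 0.014 in the 2 genotypes, and mutation plus drug gave 0.069.

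By Ψ over both of its junctions, the 5′ noncoding exon of 279 bp, chr5:34940818-34941096, was set apart by the drug in U2AF1(S34F) mice. Its Ψ was 0.189, 0.227, 0.213, 0.204 and 0.183 in U2AF1(S34F) vehicle mice and 0.245, 0.284, 0.258, 0.268 and 0.259 in U2AF1(S34F) sudemycin mice, with no overlap. In U2AF1(WT) mice the means were 0.230 ± 0.012 without and 0.264 ± 0.039 with the drug, and there 2 of 5 drug-treated mice (6 and 10, at 0.225 and 0.221) lay within the vehicle range. ΔΨ with the drug was therefore 0.060 in U2AF1(S34F) and 0.035 in U2AF1(WT) mice. The form of the exon that starts at its downstream 3′ splice site, 178 bp long, had means of 0.160, 0.193, 0.163 and 0.214. Both forms share the skipping reads and the junction that leaves the exon. Over all mice 73 reads entered the downstream site, against 1757 for the upstream one, so the means of the 178 bp form come mostly from shared reads. The 279 bp form had 5782 inclusion reads, so most of those too came from the junction that leaves the exon. Reads entering at the upstream site against skipping reads were 78/391, 118/499, 63/334, 132/422 and 80/455 in U2AF1(WT) vehicle mice. In U2AF1(WT) sudemycin mice they were 86/488, 128/464, 97/449, 91/436 and 156/432. In U2AF1(S34F) vehicle mice they were 46/442, 67/440, 83/506, 62/576 and 74/644, and in U2AF1(S34F) sudemycin mice 75/437, 90/463, 99/494, 70/383 and 62/406. The lack of overlap above is of Ψ over both junctions, and Ψ from entering reads alone was not tested. Both 3′ splice sites of the exon have T before the AG.

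Near the 3′ end of *Add1*, a 37 bp exon that is partly coding was included at 0.071 ± 0.0061, 0.064 ± 0.024, 0.051 ± 0.013 and 0.044 ± 0.015 in the same order (mutation plus drug against neither, ΔΨ=−0.027). Its length is not divisible by 3, so its inclusion shifts the reading frame at the end of the message. The U2AF1(WT) vehicle mice lay at 0.064 to 0.078 and the U2AF1(S34F) sudemycin mice at 0.027 to 0.061. A form of it 3 bp shorter (34 bp) had means of 0.041, 0.039, 0.029 and 0.028. Both forms share the skipping reads and the junction that leaves the exon, so the means of both rest partly on shared reads. Over all mice 182 reads entered the shorter form and 1268 the longer. An alternative 5′ splice site that lengthens a coding exon by 93 bp was used at 0.034, 0.022, 0.028 and 0.022.

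The noncoding 50 bp exon behind the 37 bp exon, chr5:34972884-34972933, was erratic. Its Ψ is measured from the donor of the 37 bp exon and its 34 bp form, so it describes only the few messages that include either form. It had 41 to 157 reads per mouse, against 863 to 1540 for the 37 bp exon. Inclusion reads were 0, 48, 22, 0 and 50 in U2AF1(WT) vehicle mice 1 to 5, and 2, 0, 0, 36 and 0 in U2AF1(WT) sudemycin mice 6, 8, 9, 10 and 12. They were 2, 0, 0, 0 and 0 in U2AF1(S34F) vehicle mice and 24, 40, 42, 2 and 24 in U2AF1(S34F) sudemycin mice. In 3 of the 4 groups mice ranged from 0 or 2 inclusion reads to 36 or more, with Ψ of up to 0.476, whereas the U2AF1(S34F) vehicle mice were all at or near 0 (Ψ of at most 0.0185). All pairs of groups overlapped. Mean Ψ was 0.117 ± 0.116, 0.036 ± 0.076, 0.0037 ± 0.0083 and 0.246 ± 0.168. Of all junction values in the table, 407734 equal 2 and 270052 equal 1, and whether both reads of a fragment were counted at a junction was not tested.

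*Ank1* and *Epb4.2* had too few junction reads for small changes. A 125 bp *Ank1* exon, chr8:24252068-24252192, with a median of 20 reads per mouse, had mean Ψ of 0.117, 0.0057, 0.054 and 0.012, most mice being at 0 and 1 mouse having no reads. A pair of *Ank1* 5′ splice sites 75 bp apart, with a median of 19 reads, had means from 0.680 to 0.938, and the lowest, of the S34F sudemycin group, came from 3 mice at 1.0, 1 at 0.400 and 1 at 0. Neither was called in any comparison. The remaining 4 *Ank1* events and the single *Epb4.2* event were not called either.

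*Add3* also has alternative first exons, all joined to the exon with the start codon. These shares were looked at after their values were seen and are a description. The donor of the most upstream first exon is a standard GT. Another donor, in an intron and absent from the annotation, begins with GC, a rarer form of 5′ splice site. The first intron bases are in capitals.
Add3, upstream first exon, chr19:53215202-53215210, plus strand: cagGTaagc
Add3, unannotated donor, chr19:53260391-53260399, plus strand: aagGCaagt

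The unannotated GC donor had 3687 reads over all mice, against 10305 for the upstream first exon. Its share of the reads into the start codon exon was 0.115 ± 0.025 in U2AF1(WT) vehicle, 0.121 ± 0.027 in U2AF1(WT) sudemycin, 0.203 ± 0.028 in U2AF1(S34F) vehicle and 0.187 ± 0.031 in U2AF1(S34F) sudemycin mice. U2AF1(WT) vehicle mice lay at 0.0948 to 0.157 and U2AF1(S34F) vehicle mice at 0.177 to 0.237. The genotypes overlapped under sudemycin D6 (0.0972 to 0.161 and 0.150 to 0.224), and so did the groups with mutation plus drug and with neither. The upstream first exon took 0.438 ± 0.067, 0.448 ± 0.058, 0.376 ± 0.039 and 0.458 ± 0.016 in the same order, and the next annotated one 0.275, 0.289, 0.243 and 0.215. For the upstream first exon, U2AF1(S34F) vehicle mice (0.323 to 0.425) did not overlap U2AF1(S34F) sudemycin mice (0.440 to 0.482). Its groups overlapped in the other pairwise comparisons, and those of the next annotated one in all.

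**Figure D5:**
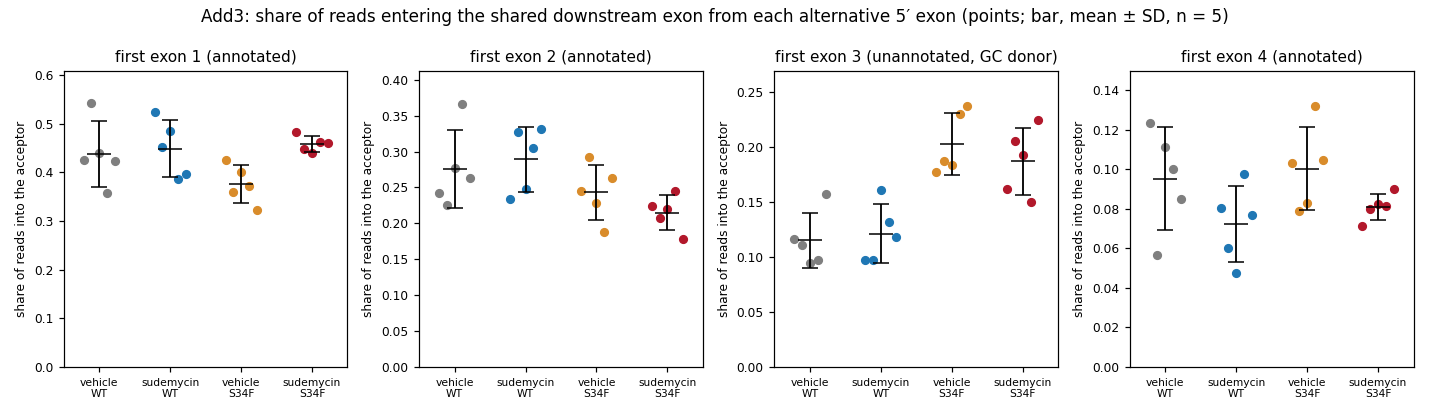
The share of *Add3* reads that enter the start codon exon from each of 4 upstream exons, numbered along the gene (y axis, fraction from 0), is plotted by group (x axis); points are mice, marks with bars mean ± SD (n = 5). The unannotated exon, numbered 3, takes 0.115 and 0.121 in the U2AF1(WT) groups and 0.203 and 0.187 in the U2AF1(S34F) groups.

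Splicing regulators known from erythroid exon switches, a list of 9 genes, had 2 higher and 3 lower between genotypes under vehicle, 4 higher and 1 lower under sudemycin D6, 0 changed with the drug in U2AF1(WT) mice, 2 higher with it in U2AF1(S34F) mice, and 6 higher and 1 lower with mutation plus drug. Of all genes, 39.5%, 36.8%, 3.07%, 10.8% and 50.2% were called in these 5 comparisons. *Rbfox2*, a factor that binds the TGCATG letters, was low, at 2.02 CPM in U2AF1(WT) sudemycin and 3.33 CPM in U2AF1(S34F) sudemycin mice (0.71 ± 0.19, FDR=0.0159). *Mbnl3* rose by 0.44 ± 0.085 under vehicle (FDR=0.0021) and *Srsf1* by 0.32 ± 0.099 (FDR=0.0271), while *Celf1* fell by 0.38 ± 0.082 (FDR=0.00405) and *Mbnl2* by 0.23 ± 0.077 (FDR=0.0348). *Hnrnpa1* rose by 0.41 ± 0.079 under sudemycin D6 (FDR=0.00301). Their part in the exons above was not tested.

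Among all genes, those whose log2 levels over the 20 mice were most like the mean of the 5 low-set members were the dematin gene *Epb4.9* (Pearson r=0.962, Spearman rho=0.949), *Tspan33* (0.952 and 0.946), the haem synthesis gene *Alad* (0.946 and 0.929), the erythroid factor *Klf1* (0.945 and 0.935) and *Spire1* (0.945 and 0.955). Most like *Add3* were *Brap* (r=0.933, rho=0.851), the myeloid integrin gene *Itgam* (0.929 and 0.916), *Hcfc1r1* (0.927 and 0.863), *Ostf1* (0.926 and 0.923) and *Flna* (0.926 and 0.851). The points share libraries and the 4 groups, and the values describe these mice only.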

How the data were processed

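RNA of bulk marrow from 20 mice was depleted of ribosomal RNA and sequenced as stranded paired reads. The authors aligned the reads with TopHat2 (version 2.0.8) to mm9 and deposited counts of reads per gene and per splice junction; the gene counter is not given in the sources used here. Of these counts, genes were tested with edgeR 4.0.16 (quasi-likelihood, TMM, filterByExpr, R 4.3.3) over all genes, in 5 pairwise comparisons of 10 mice and an interaction over 20, with Benjamini-Hochberg FDR<10%. Log2 fold changes used a prior count of 2. Levels are CPM with TMM.

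Splicing events (mutually exclusive and cassette exons, alternative splice sites) were built from annotated junctions (GENCODE, NCBI build 37). Inclusion and exclusion counts were tested over all events in edgeR where mice averaged 10 reads or more, with 1 coefficient per mouse and dispersion 0, at FDR<10% and a change in Ψ above 1%; this form came from an earlier analysis of these data that chose it after seeing counts. Both tests were tested on simulated data.

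Members, gene lists and exons were chosen with earlier results of these data known. Named are all members, events called or with a change of at least 0.10, and at most 6 called genes per list. Alternatives used DESeq2 1.42.0, limma 3.58.1, other filters, thresholds and models, the replicate number as a block, and leaving out each mouse. No pair of libraries of a group agreed within sampling noise. Protein sequences were not used here.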

Additional observations from a re-analysis of the deposited data

Results flagged for a closer look

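In 6 of 67 groups of 5 values examined, 1 mouse stood apart from the other 4 by the Dixon test, which chance does in about 1 group in 20 for values that vary freely. In 3 of the 6 the other 4 mice were all exactly at 0 or at 1.0, where any other value stands apart by construction and that rate does not apply. *Epb4.1* was at 121.85 CPM in mouse 3 of the U2AF1(S34F) vehicle group, whose other mice lay at 106 to 110, the same mouse that was highest there for the 5 low-set genes. The *Add1* 50 bp exon had Ψ=0.171 in mouse 10 of the U2AF1(WT) sudemycin group (others 0 to 0.011), and Ψ=0.0185 in mouse 1 of the U2AF1(S34F) vehicle group (others 0). The *Ank1* 125 bp exon had Ψ=0.0286 in mouse 10 of the U2AF1(WT) sudemycin group (others 0). The pair of *Ank1* 5′ splice sites 75 bp apart had Ψ=0.448 in mouse 1 of the U2AF1(WT) vehicle group (others 0.967 to 1.0), from 13 reads of one form and 16 of the other, and 0.5 in mouse 8 of the U2AF1(WT) sudemycin group (others 1.0), from 4 reads of each form.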

How the results depend on the processing

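For the member genes, DESeq2, DESeq2 size factors in edgeR, a filter of 1 CPM in 5 mice and one model of all mice kept each count of called members within 1.5 times. Between genotypes under sudemycin D6 the count of 5 became 3 at FDR<5% and 2 when genes with any count were kept. For the events, a dispersion estimated by edgeR called 0 members in each comparison, in place of 3 between genotypes under vehicle, 2 under sudemycin D6, 3 with the drug in U2AF1(S34F) mice and 5 with mutation plus drug; over all events it called 34, 6, 9 and 188 there. Under sudemycin D6, FDR<5%, limma and one model of all mice each called 1. With the drug in U2AF1(S34F) mice, one model called 0. With mutation plus drug, FDR<5% and limma each called 3. Adding unannotated pairings of annotated sites, an alternative chosen after seeing the data, called 5 with the drug in U2AF1(S34F) mice and 8 with mutation plus drug. The cause of these moves was not tested, other than that FDR<5% is stricter by construction.

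Leaving out each mouse gave 1 to 5 and 2 to 5 called genes between genotypes under vehicle and sudemycin D6, 0 to 0 with the drug in either genotype and for the interaction, and 5 to 6 with mutation plus drug. For events it gave 2 to 4, 1 to 3, 0 to 0 (drug in U2AF1(WT)), 1 to 3 (drug in U2AF1(S34F)), 3 to 5 and 0 to 0 (interaction). Events fell to 1 between genotypes under sudemycin D6 without U2AF1(S34F) mouse 9 or 12, to 1 with the drug in U2AF1(S34F) mice without vehicle mouse 11 or sudemycin mouse 6, and to 3 with mutation plus drug without vehicle U2AF1(WT) mouse 2 or sudemycin U2AF1(S34F) mouse 6 or 12.

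Of the called log2 fold changes under all alternatives, 175 kept direction and call and 23 lost the call. For the *Add3* exon the numbers were 53 and 3. The 53 include changes in Ψ with inclusion reads not halved, for which the test was not run again and the call was carried over. Of 36 member values that were not called, 16 changed sign under some alternative and 4 were called under some.

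Mice that share a replicate number between genotypes did not all deviate together: their correlations ran from −0.23 to 0.092 in 3 vehicle pairs and from −0.30 to 0.53 in 4 sudemycin pairs. So few and mixed values cannot decide whether the numbers mark a pairing or a shared batch. With the number as a replicate block, 5 member genes were called between genotypes under vehicle, where 1 was called without it, and 4 under sudemycin D6; events numbered 4 and 3. Over all genes the block called 5472 and 4708, against 5851 and 5402 without it, and over all events 459 and 445, against 462 and 438.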

Other observations

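Between the *Add1* exon with the alternative 5′ splice site and the next annotated exon lies a 45 bp exon that the annotation lacks, chr5:34960085-34960129, plus strand. It was noticed in the junction table and is described without a test. Exon bases are in capitals.
Add1, unannotated exon of 45 bp: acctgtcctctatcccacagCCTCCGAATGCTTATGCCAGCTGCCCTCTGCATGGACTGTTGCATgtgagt

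Over the 20 mice 681 reads entered it and 704 left it. Its Ψ was 0.035 ± 0.0056 in U2AF1(WT) vehicle, 0.021 ± 0.015 in U2AF1(WT) sudemycin, 0.055 ± 0.016 in U2AF1(S34F) vehicle and 0.031 ± 0.0090 with S34F and sudemycin D6. The U2AF1(S34F) vehicle mice (0.036 to 0.071) overlapped the U2AF1(WT) vehicle mice (0.027 to 0.041). Junctions outside the annotation took 2.00% of the junction reads of *Add3* and 0.737% of those of *Add1*, against 0.148% to 0.484% for the other members.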
